A study of Mus musculus with 15 samples.

Results

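The cytosolic ribosomal proteins were examined as 60 genes, measured by 69 of the 16322 probes in the deposited table of normalized values. A probe was taken where its annotated symbol began with Rpl or Rps followed by a digit, or was Rpsa, Rplp0, Rplp1 or Rplp2, and the 3 probes for Rps6k kinases were left out. By symbol, 23 genes (27 probes) belong to the small 40S subunit and 36 genes (41 probes) to the large 60S subunit. The remaining gene, Rps19bp1, entered by its letters but encodes a protein that binds Rps19. Rplp2 and Rpl11 were not analysed here.

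RNA of neutrophils from BALB/c mice was hybridized to Illumina mouse bead arrays. Naive neutrophils (NN, 7 arrays) came from the marrow of mice without tumors. Granulocytic myeloid-derived suppressor cells (G-MDSC, 4 arrays) came from spleens of mice carrying AB12 flank tumors of 500 to 700 mm3, 21 to 25 days after injection. Tumor-associated neutrophils (TAN, 4 arrays) came from AB12 flank tumors of 250 to 300 mm3, 12 to 15 days after injection. AB12 is a BALB/c mesothelioma line induced by asbestos, so G-MDSC and TAN share 1 tumor line. Every sample pooled RNA of 2 to 4 mice. The methods give a purity above 85% under the isolation from spleens and tumors, and none for the marrow gradient. The sources differ on the NN: by the methods, marrow neutrophils were taken from a density gradient, while spleens and tumors were digested and the cells were selected with CD11b beads and a Ly6G sort, and by the labels all 3 populations went through beads and sort. If the methods hold, preparation also differs between NN and the rest. Organ and tumor stage cannot be told apart from the population.

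Ribosomal proteins together with ribosomal RNA form the ribosome, which translates messenger RNA into protein. Their own messages are among the most abundant in most cells, and in mammals many begin with a stretch of pyrimidines, the 5′ terminal oligopyrimidine (TOP) tract, through which growth signals set how strongly they are translated. Neutrophil precursors in the marrow make large amounts of granule protein, while mature neutrophils hold less RNA. The genes have many processed pseudogenes that closely resemble them, so a probe may also bind transcripts of such a copy. Probe sequences were not used here.

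The sequences around the start of transcription show a feature that many of these genes share and that the choice of members did not use. An entry of 300 bases, 250 before and 50 after the start, was found in the RefSeq promoter table (build GRCm38.p6) for 51 of the 60 genes. The other 9, among them Rpl3, Rpl29 and Rplp1, had no entry there. A run of at least 8 C or T bases on the coding strand, reaching to within 10 bases of the start, stood in 23 of the 51 genes (45.1%), and in 4362 of all 27025 genes of the table (16.1%). The letters CCGGAAG, which ETS factors can bind, stood on either strand in 19 (37.3%), against 9.93% of all genes. TATAAA stood on either strand in 6 (11.8%), against 15.7%. Below, 60 bases of 6 genes are shown, 40 before and 20 after the start, with the pyrimidine run in capitals. Rps7, Rps6, Rpl7a and Rps9 had a probe that fell in TAN, and Rpl27a and Rps26 rose, as described further on. The stretches lie at chr12:28635934-28635993, reverse strand (Rps7), chr4:86857348-86857407, reverse strand (Rps6), chr2:26910767-26910826, forward strand (Rpl7a), chr7:3704001-3704060, forward strand (Rps9), chr7:109519155-109519214, forward strand (Rpl27a) and chr10:128626487-128626546, reverse strand (Rps26).
Rps7: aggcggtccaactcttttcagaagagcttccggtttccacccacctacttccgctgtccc
Rps6: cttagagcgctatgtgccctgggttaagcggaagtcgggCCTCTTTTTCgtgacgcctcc
Rpl7a: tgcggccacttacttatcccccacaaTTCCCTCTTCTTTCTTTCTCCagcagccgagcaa
Rps9: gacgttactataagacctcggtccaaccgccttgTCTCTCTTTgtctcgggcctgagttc
Rpl27a: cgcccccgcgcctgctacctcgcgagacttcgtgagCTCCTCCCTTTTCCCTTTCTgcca
Rps26: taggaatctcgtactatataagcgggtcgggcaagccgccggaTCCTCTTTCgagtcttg

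The run was 21 bases long in Rpl7a, 20 in Rpl27a, 10 in Rps6, 9 in Rps9 and 9 in Rps26. In Rps7 no run of that length reached the start. The same was true of Rpl12 and Rplp0, which rose and are not shown. Of the 8 genes with a probe that fell in TAN, 3 held the run (37.5%), as did 17 of 31 genes that rose with no probe falling (54.8%) and 3 of the other 12 (25%). Genes that fell and genes that rose thus both included such starts. These are counts of letters in the sequence and no test was made of them.

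Signals are given on the log2 scale after background correction and quantile normalization, and a probe is called above background where it exceeds the 95th percentile of 9375 probes absent from the normalized table. Between 12868 and 13759 probes were above background in NN and G-MDSC and between 12090 and 13009 in TAN, and the number of arrays limits the precision. Of the ribosomal protein probes, 64 to 67 were above background on each array, and 61 were so on all 15 arrays. The median background signal was at least 105 on NN 6, NN 7 and all G-MDSC and at most 94.3 on NN 1 to NN 5 and all TAN. No background level held both G-MDSC and TAN, so for this pair no comparison within a level was possible, and a block for the level rests on the NN, which lie at both. In bulk samples of this kind, fewer cells of a type and less RNA per cell cannot be told apart. The p-values measure only the spread between these pooled samples.

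Taken over all 69 probes, the ribosomal proteins stood higher in TAN than in NN. The median difference of the probes from their NN mean was -0.19 to 0.18 on the 7 NN arrays. It was 0.49, 0.58, 0.52 and 0.54 on TAN 1 to 4, so no TAN array overlapped an NN array. On G-MDSC 1 it was 0.50, while on G-MDSC 2, 3 and 4 it was -0.01, -0.06 and 0.05, inside the range of the NN.

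In the comparison of TAN with NN, a limma model over all probes with Benjamini-Hochberg adjustment called 42 of the 69 probes higher and 8 lower at an adjusted p under 0.05. Over all 16322 probes, 32.7% were called higher and 29.1% lower, so the members were called higher more often (60.9%) and lower less often (11.6%) than the background, a description without a test. The median log2 difference of the members was 0.55, beside 0.05 over all probes. Of the 41 probes of the 60S subunit 29 rose and 3 fell (median 0.61), and of the 27 probes of the 40S subunit 13 rose and 5 fell (median 0.34). In 32 of the 42 probes that rose every TAN array lay above every NN array. Over all probes, the same held in 3592 of the 5333 called higher, which is 22.0% of the 16322. Taking only the probe with the highest mean signal for each gene, 37 of 60 genes rose and 6 fell. Beside these stand 36.9% and 26.1% of all 11076 genes counted this way. The mean ran over all arrays, TAN included, so this choice tended to leave out probes that were low in TAN. In Rps9 the probe that fell was left out, though its NN mean was the higher (13.95 against 13.68).

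**Figure D1:**
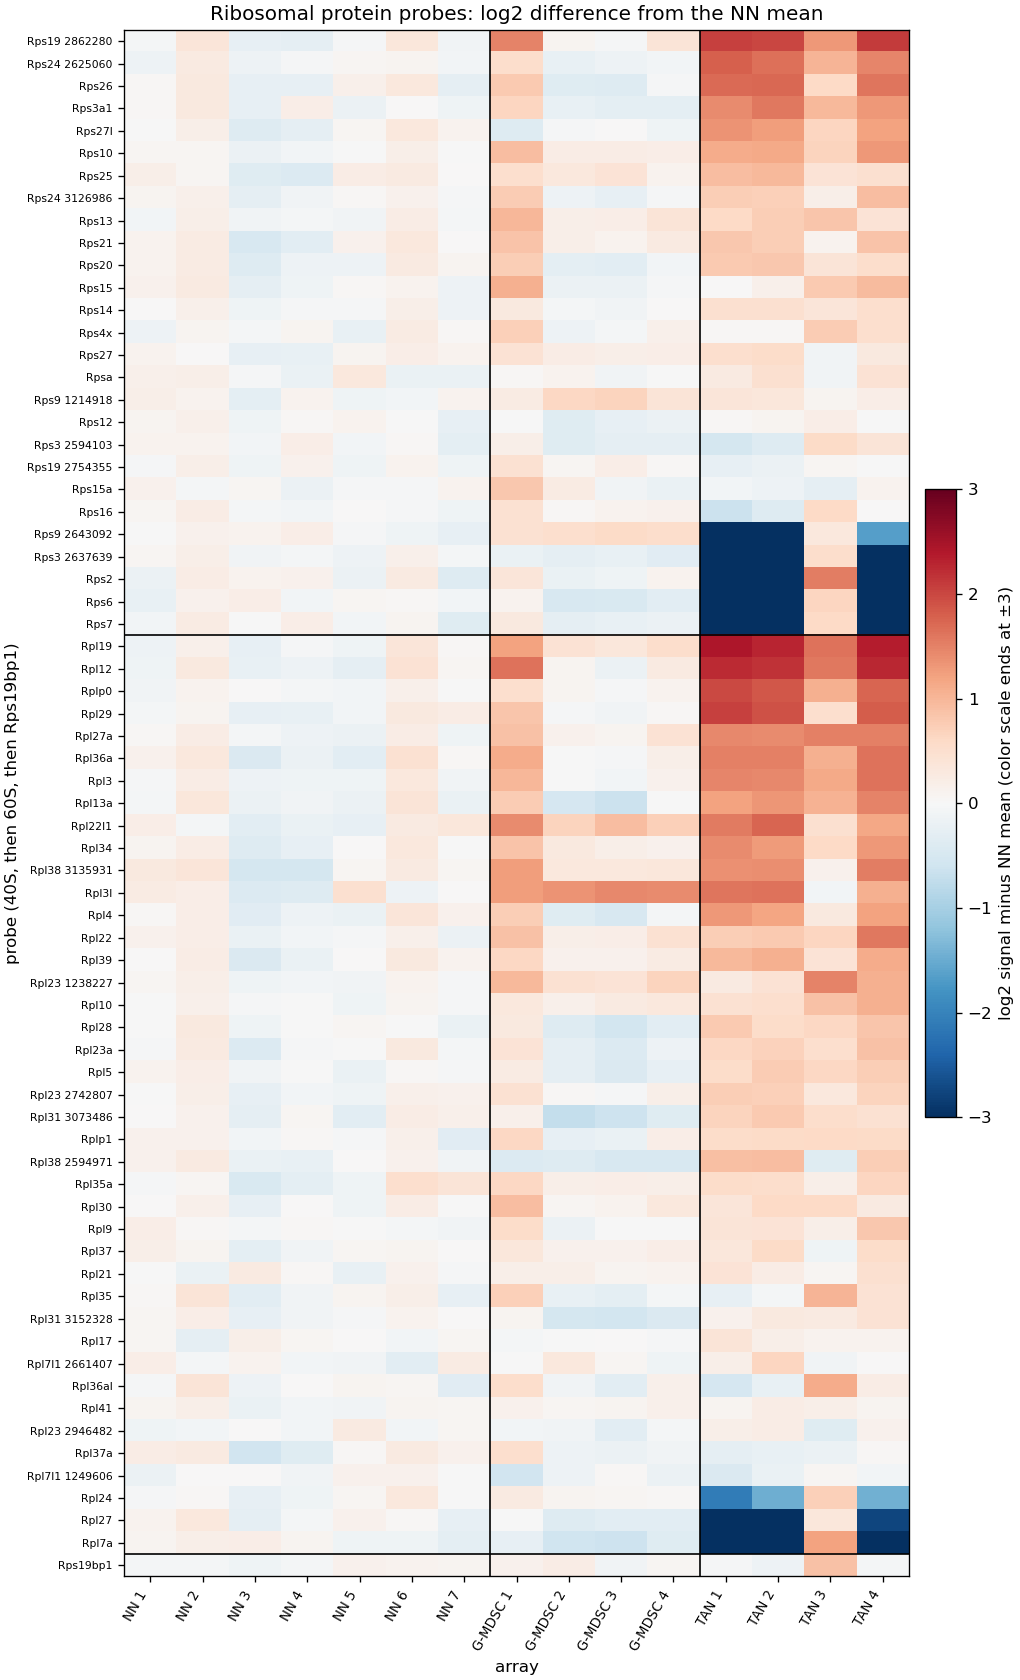
Log2 signal of the 69 ribosomal protein probes (rows) on the 15 arrays (columns), as the difference from the mean of the 7 NN arrays, with red for higher and blue for lower and the color scale ending at 3 either way. Rows run from the largest to the smallest TAN versus NN difference within 40S, 60S and Rps19bp1, and the blue block in TAN 1, TAN 2 and TAN 4 holds the 8 probes that fell, which are red in TAN 3.

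The largest rise among the 60S proteins was that of Rpl19, whose long helix reaches between the subunits. Rpl19 (ILMN_2869225) measured 10.22 to 10.84 (median 10.43) on the NN arrays, 11.67, 10.90, 10.80 and 11.00 on G-MDSC 1 to 4 and 12.90, 12.75, 12.09 and 12.83 on TAN 1 to 4. All TAN lay above all other arrays, and TAN 3 was the lowest of the TAN. The TAN versus NN log2 difference was 2.18 ± 0.18 (SE), adjusted p = 3.85e-08, a 4.53-fold rise.

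Rpl12 and Rplp0 belong to the stalk region of the 60S subunit, where elongation factors bind, and Rplp0 carries the stalk proteins Rplp1 and Rplp2. The Rpl12 signal was 11.83 to 12.54 (median 11.96) in NN, 13.73, 12.17, 11.93 and 12.37 in G-MDSC and 14.34, 14.27, 13.67 and 14.36 in TAN. G-MDSC 1 thus lay at the level of TAN 3, while the other 3 G-MDSC stayed within the NN range. Its TAN versus NN log2 difference was 2.07 ± 0.27 (SE), adjusted p = 6.08e-06. Rplp0 was 7.46 to 7.73 (median 7.55) in NN, 8.08, 7.64, 7.54 and 7.67 in G-MDSC and 9.56, 9.43, 8.63 and 9.31 in TAN, again with TAN 3 lowest of the TAN and still above every NN. It rose by 1.66 ± 0.15 (SE), adjusted p = 9.81e-08. Rplp1 lay near the top of the scale, at 15.001 to 15.49 (median 15.38) in NN and 15.88, 15.92, 15.93 and 15.91 in TAN, where the 4 arrays hardly differed. Its rise of 0.57 ± 0.14 (SE), adjusted p = 0.00266 is therefore measured close to the highest signal the arrays gave (16.01). Rpl41, also near the top, did not pass the test, with a TAN versus NN difference of 0.14 ± 0.08 (SE), adjusted p = 0.169.

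Rpl29, Rpl27a, Rpl3 and Rpl13a of the 60S subunit also rose with no overlap between TAN and NN. In Rpl29 the G-MDSC 1 array (11.27) lay above TAN 3. Rpl29, which is also known as a heparin-binding protein, measured 10.19 to 10.71 (median 10.38) in NN and 12.48, 12.34, 10.94 and 12.24 in TAN, with TAN 3 only just above the NN. The fitted difference was 1.57 ± 0.25 (SE), adjusted p = 5.21e-05. Rpl27a had TAN values close together, 10.33, 10.29, 10.39 and 10.40, against 8.71 to 9.10 (median 8.83) in NN, and rose by 1.47 ± 0.14 (SE), adjusted p = 1.39e-07. Rpl3, which lies close to the center that joins amino acids, was 12.97 to 13.44 (median 13.02) in NN and 14.58, 14.56, 14.25 and 14.74 in TAN, a difference of 1.42 ± 0.18 (SE), adjusted p = 4.49e-06. Rpl13a, which in human monocytes can leave the ribosome to silence inflammatory messages, measured 8.97 to 9.56 (median 9.08) in NN and 10.38, 10.49, 10.22 and 10.67 in TAN. No TAN array overlapped the NN, and the difference was 1.26 ± 0.22 (SE), adjusted p = 1.02e-04.

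Rpl10, which joins the 60S subunit late in its assembly, and Rpl5, which with 5S ribosomal RNA can bind the p53 regulator Mdm2, rose less. The Rpl10 arrays read 13.96 to 14.24 (median 14.08) in NN and 14.55, 14.60, 14.98 and 15.17 in TAN, for a difference of 0.72 ± 0.11 (SE), adjusted p = 3.27e-05. Those of Rpl5 read 13.46 to 13.84 (median 13.64) and 14.20, 14.42, 14.27 and 14.38, for 0.67 ± 0.12 (SE), adjusted p = 1.24e-04. In both genes every TAN lay above every NN.

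Among the 40S proteins Rps19, the gene first linked to the inherited anemia Diamond-Blackfan anemia in human patients, rose most. Its probe ILMN_2862280 measured 12.76 to 13.40 (median 12.96) in NN, 14.50, 13.11, 13.00 and 13.41 in G-MDSC and 15.08, 15.02, 14.33 and 15.11 in TAN, and the TAN versus NN difference was 1.86 ± 0.25 (SE), adjusted p = 6.89e-06. G-MDSC 1 reached above TAN 3, and the other G-MDSC stayed close to the NN. The other Rps19 probe (ILMN_2754355) was above background on 1 of 7 NN, 2 of 4 G-MDSC and no TAN, so it gives no fold. Rps26, which sits at the exit of the messenger RNA channel, was 13.07 to 13.67 (median 13.39) in NN and 15.06, 15.08, 13.96 and 14.96 in TAN (1.41 ± 0.24 SE, adjusted p = 1.08e-04). Rps3a1 measured 9.14 to 9.68 (median 9.39) and 10.80, 10.98, 10.36 and 10.69 and rose by 1.32 ± 0.18 (SE), adjusted p = 7.70e-06. Rps24 rose by both of its probes, by 1.48 ± 0.16 (SE, adjusted p = 6.87e-07) and by 0.64 ± 0.18 (adjusted p = 0.00538). Rpsa, also known as the laminin receptor, lay near background and did not pass the test (0.27 ± 0.13 SE, adjusted p = 0.0821).

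The 8 probes that fell in TAN all shared a pattern: the fall was confined to TAN 1, TAN 2 and TAN 4. They belong to Rps2, Rps3, Rps6, Rps7 and Rps9 of the 40S subunit and to Rpl7a, Rpl24 and Rpl27 of the 60S subunit. These genes, apart from Rps6 and Rps3, and the probes of Rps24, Rps26, Rpl23, Rpl31 and Rpl38 were chosen for description after their values were seen. In all 8 probes TAN 1, TAN 2 and TAN 4 lay below every NN array, while TAN 3 lay above every NN array. The mean of TAN 1, 2 and 4 minus the NN mean ran from -5.20 to -1.67 on the log2 scale, and TAN 3 stood 2.39 to 5.80 above the mean of the other TAN. Of all 16322 probes, 1085 had a mean of TAN 1, 2 and 4 over 4-fold below NN, and in 159 of these (14.7%) TAN 3 was above the NN mean. Among the ribosomal protein probes it was 7 of 7. Rps2, Rps6, Rps7, Rpl7a, Rpl24 and Rpl27 were each measured by 1 probe. In these genes a fall of the gene cannot be told apart from a fall of that probe alone.

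The probe of Rps7, 1 of the genes mutated in Diamond-Blackfan anemia, fell most. Its signal was 13.32 to 13.94 (median 13.67) on the NN arrays, 13.99, 13.42, 13.47 and 13.51 on G-MDSC 1 to 4 and 8.17, 8.29, 14.29 and 9.01 on TAN 1 to 4. The TAN mean of 9.94 ± 2.92 (SD, n = 4) describes no array well. The fitted TAN versus NN difference was -3.75 ± 0.82 (SE), adjusted p = 8.46e-04. The model takes 1 spread for all 3 groups, while the SD of Rps7 was only 0.21 in NN and 0.27 in G-MDSC. The SE and adjusted p of all probes that fell therefore understate the spread within TAN. Without TAN 3 the Rps7 difference was -5.20, and with TAN 3 as the only TAN it was 0.61. TAN 3 was set apart with earlier results of these data known, so neither value is given with a p-value.

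Rps6, the subunit protein that S6 kinases phosphorylate when growth signals are active, behaved alike. It measured 12.45 to 12.87 (median 12.71) in NN, 12.78, 12.21, 12.22 and 12.36 in G-MDSC and 8.04, 8.01, 13.32 and 8.20 in TAN, with a fitted difference of -3.29 ± 0.73 (SE), adjusted p = 0.001. With TAN 3 left out this became -4.60, and with TAN 3 alone 0.64. Rps2, which lies where the message enters the ribosome, was 11.57 to 12.24 (median 12.08) in NN and 7.97, 7.89, 13.49 and 7.97 in TAN. Its TAN 3 value was the highest of all 15 arrays, and the 3 other TAN lay close together. The fitted difference was -2.63 ± 0.78 (SE), adjusted p = 0.00779.

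Rpl7a was brought close to background in the same 3 arrays. It was 10.17 to 10.65 (median 10.53) in NN, 10.21, 9.86, 9.83 and 10.09 in G-MDSC and 6.57, 6.63, 11.66 and 6.49 in TAN, and 3 of the 4 TAN were above background. The fitted difference was -2.62 ± 0.71 (SE), adjusted p = 0.00455. Rpl27 was 13.38 to 13.98 (median 13.69) in NN and 9.57, 9.97, 13.99 and 10.91 in TAN, and fell by 2.55 ± 0.56 (SE), adjusted p = 9.53e-04. Rpl24, which forms a bridge between the subunits, had the smallest fall of the 8, -1.07 ± 0.35 (SE), adjusted p = 0.0154, with 9.50, 10.13, 12.33 and 10.17 in TAN and 11.35 to 11.91 (median 11.59) in NN. Within the arrays of low background (NN 1 to NN 5 and TAN) Rpl24 no longer passed the test, and the other 7 did.

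**Figure D2:**
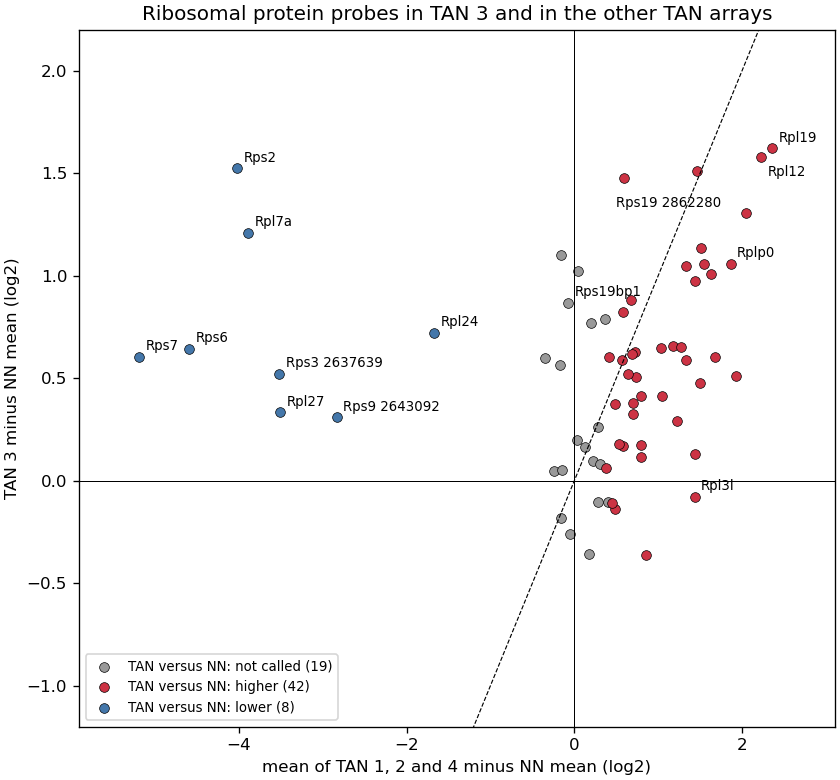
For each of the 69 ribosomal protein probes, the mean of TAN 1, 2 and 4 minus the NN mean (horizontal axis, log2) against TAN 3 minus the NN mean (vertical axis, log2), colored by the TAN versus NN call, with a dashed line where both are equal. The 8 blue probes lie between -5.20 and -1.67 on the horizontal axis and all above 0 on the vertical axis.

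Rps3 and Rps9 were each measured by a second probe that was not called in TAN versus NN. Rps3, which lines the entry of the message and also binds NF-kB, measured 12.14 to 12.46 (median 12.23) in NN and 8.72, 8.81, 12.80 and 8.75 in TAN by ILMN_2637639. The difference was -2.51 ± 0.56 (SE), adjusted p = 0.00107. By ILMN_2594103 it was 13.19 to 13.68 (median 13.51) in NN and 12.96, 13.09, 14.04 and 13.87 in TAN, with TAN 1 and TAN 2 below every NN and TAN 3 and TAN 4 above, and with a difference of 0.01 ± 0.19 (SE), adjusted p = 0.96. With array weights this became -0.36 and was called lower. Rps9, a protein of the 40S body, measured 13.70 to 14.14 (median 13.93) in NN and 10.16, 10.88, 14.26 and 12.30 in TAN by ILMN_2643092, a difference of -2.05 ± 0.51 (SE), adjusted p = 0.00226. Its other probe ILMN_1214918 was 13.38 to 13.86 (median 13.77) in NN and 14.03, 14.03, 13.76 and 13.88 in TAN (0.25 ± 0.11 SE, adjusted p = 0.0637). On TAN 1 the pair of Rps9 probes thus differed from their NN means by amounts that lay over 4-fold apart, and on TAN 3 they moved nearly alike. Which transcripts or stretches of a transcript each probe reads was not tested.

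Probes of 1 gene also went apart elsewhere on these arrays. Among 1014 genes with several probes of NN mean at least 8, the genes with 1 probe over 4-fold below NN and another not lowered beyond 0.5 numbered 174 on TAN 1, 165 on TAN 2, 142 on TAN 4 and 19 on TAN 3. They numbered 0 to 4 on the NN and G-MDSC arrays. On TAN 3 the 8 macrophage markers had a list mean of 13.37 and on the other TAN 11.32 to 12.31, and the 11 neutrophil markers 11.7 and 10.82 to 10.91. The markers did not move alike: C1qa was 13.05 on TAN 3 and 7.88 to 9.03 on the others, and C1qc 14.55 and 9.37 to 11.65, while Adgre1 was 12.08 and 11.95 to 12.26 and Trem2 12.17 and 12.29 to 12.41. Among the neutrophil markers Ngp stood farthest apart, at 11.36 on TAN 3 and 6.40 to 7.10 on the others. The part of these differences in the ribosomal protein values was not tested.

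**Figure D3:**
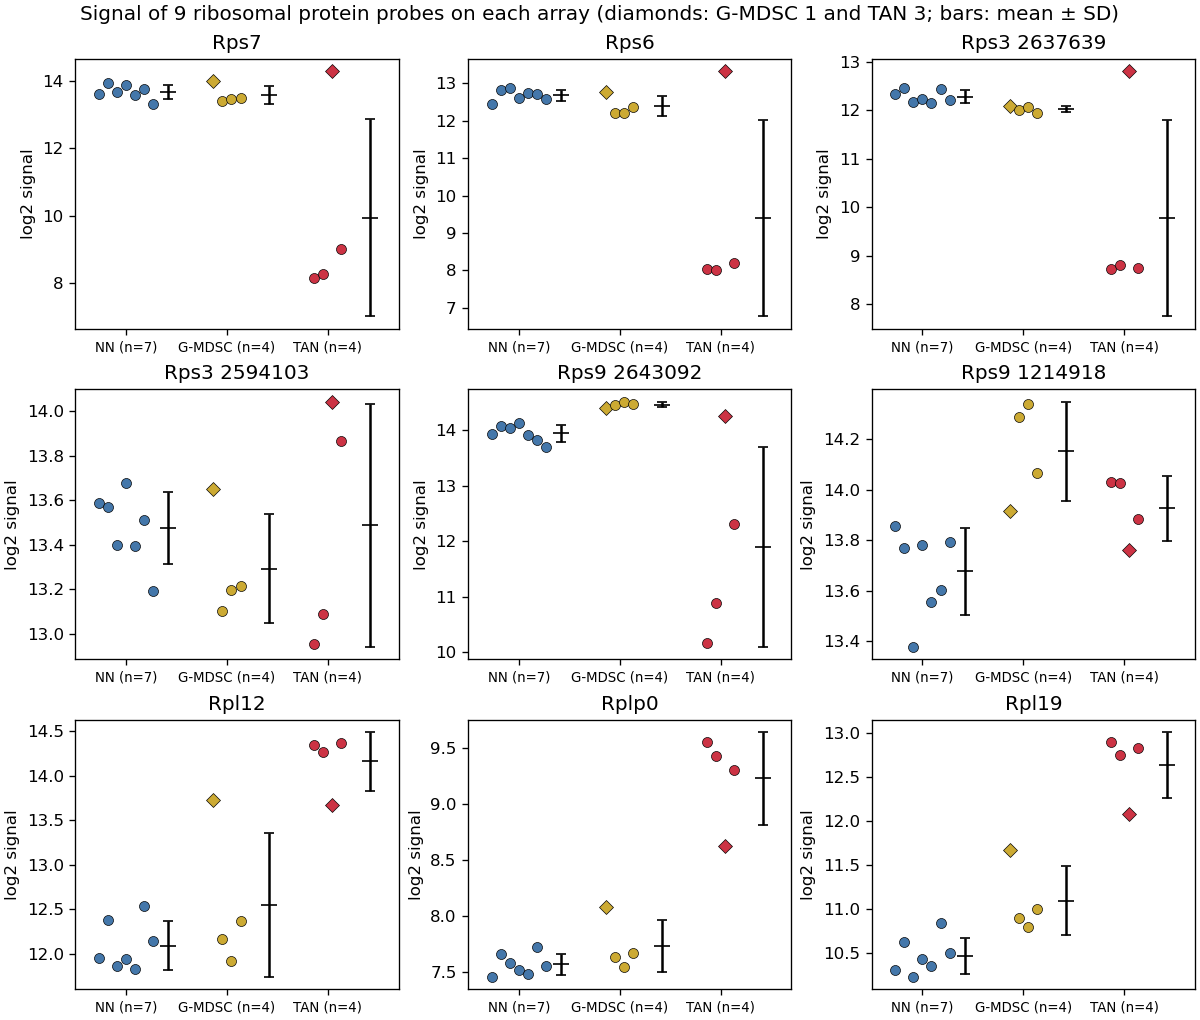
Log2 signal of 9 ribosomal protein probes on each array by group (each panel has its own vertical scale, points are arrays, diamonds mark G-MDSC 1 and TAN 3, bars are mean ± SD). Rps7, Rps6 and 1 probe each of Rps3 and Rps9 are low in TAN 1, 2 and 4 and high in TAN 3, while Rpl12, Rplp0 and Rpl19 are high in all 4 TAN.

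With TAN 3 left out, 44 members were called higher and 9 lower in TAN than in NN, where 36.3% of all probes were called higher and 30.4% lower, and the added fall was that of Rps16 (-0.35). With TAN 3 as the only TAN, 29 members were called higher and 0 lower, beside 20.2% and 20.0% of all probes. The 29 included Rpl19 (1.62), Rpl12 (1.58) and Rplp0 (1.06 on the log2 scale), and also 6 of the 8 probes that fell in the other TAN. Within the arrays of low background, 39 members were higher and 7 lower, beside 29.4% and 27.5% of all probes. The median difference of the members stayed between 0.51 and 0.59 when any 1 array was left out. The counts with TAN 3 as the only TAN rest on 1 array, which gives no spread of its own.

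Fewer ribosomal protein genes differed between G-MDSC and NN. In this comparison 8 of 69 probes were called higher and 1 lower, a share below that of all probes, of which 18.0% were called higher and 18.5% lower. The median log2 difference was 0.11 over the members and 0.00 over all probes. With each array scaled to its median in place of quantile normalization, 24 were called higher and 0 lower, beside 20.9% and 12.9% of all probes. The 7 NN arrays serve in this comparison and in that of TAN with NN, so the calls of the pair are not independent.

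The largest rise in G-MDSC was that of Rpl3l, a paralog of Rpl3 that is known from skeletal muscle and heart. It measured 10.25 to 11.14 (median 10.67) in NN, 11.90, 12.004, 12.09 and 12.07 in G-MDSC and 12.27, 12.27, 10.57 and 11.72 in TAN. All 4 G-MDSC lay above every NN, and TAN 3 lay within the NN range while the other TAN did not. The G-MDSC versus NN difference was 1.37 ± 0.26 (SE), adjusted p = 6.55e-04, and the TAN versus NN difference was 1.06 ± 0.26 (SE), adjusted p = 0.00254. Within the arrays of high background (NN 6, NN 7 and G-MDSC) the G-MDSC difference was 1.44 (adjusted p = 2.03e-04). Its parent Rpl3 was 14.13, 13.11, 13.03 and 13.25 in G-MDSC, with a difference of 0.26 ± 0.18 (SE), adjusted p = 0.279.

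Rpl22l1, the paralog of Rpl22, rose in both tumor groups. It was 6.40 to 7.07 (median 6.66) in NN, near background, 8.15, 7.40, 7.66 and 7.45 in G-MDSC and 8.29, 8.48, 7.21 and 7.90 in TAN. The difference from NN was 0.94 ± 0.22 (SE), adjusted p = 0.003 in G-MDSC and 1.24 ± 0.22 (SE), adjusted p = 1.32e-04 in TAN, and no array of either group overlapped the NN. Among high-background arrays alone the G-MDSC difference was 0.63 (adjusted p = 0.0737), no longer past the test. Rpl22, which in mice supports the development of T cells, rose in TAN by 0.94 ± 0.17 (SE), adjusted p = 2.00e-04, and its G-MDSC versus NN difference was 0.43 ± 0.17 (SE), adjusted p = 0.0664. Rps9 by ILMN_1214918 was 13.92, 14.29, 14.34 and 14.07 in G-MDSC, above every NN, with a difference of 0.48 ± 0.11 (SE), adjusted p = 0.00309. Among high-background arrays alone it was 0.45 (adjusted p = 0.0652). The other Rps9 probe was 14.41, 14.47, 14.52 and 14.47, also above every NN, with a difference of 0.52 ± 0.51 (SE), adjusted p = 0.454, where the spread shared with the TAN arrays entered the error.

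Rps10, Rps13, Rpl19, Rpl27a and 1 of the 3 Rpl23 probes made up the other calls in G-MDSC. Rps10 was 12.35 to 12.70 (median 12.53) in NN and 13.45, 12.76, 12.75 and 12.74 in G-MDSC (0.39 ± 0.14 SE, adjusted p = 0.0443), where G-MDSC 1 stood apart from the other 3. Rpl23 rose by ILMN_1238227 (0.63 ± 0.19 SE, adjusted p = 0.0146) but its other probes showed differences of 0.16 and -0.14 that did not pass the test. The member that fell was ILMN_3152328 of Rpl31, which fell by 0.35 ± 0.12 (SE), adjusted p = 0.0339, and with each array scaled to its median this turned to 0.10. The other Rpl31 probe differed by -0.39 ± 0.15 (SE), adjusted p = 0.059.

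G-MDSC 1 carried much of the G-MDSC rise. It was the highest of the 4 G-MDSC in 57 of 69 ribosomal protein probes (82.6%) and in 34.7% of all probes. The median excess of G-MDSC 1 over the mean of G-MDSC 2 to 4 was 0.57 over the members and -0.01 over all probes. In 7 members it was over 2-fold, among them Rpl12 (1.57), Rps19 (1.33) and Rpl13a (1.16). On this array every one of 6 markers of B cells exceeded G-MDSC 2 to 4 by over 2-fold on average, and so did 5 of the 6 for T and NK cells. The B cell list had a mean of 9.68 on G-MDSC 1 and 7.08 to 7.34 on the others, and the T and NK cell list 10.05 and 7.69 to 7.77. Of 3 eosinophil markers 2 were over 2-fold higher on G-MDSC 1 as well, with a list mean of 8.37 against 6.66 to 7.13. Their part in the result was not tested.

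Without G-MDSC 1, 3 members were called higher (Rpl3l, Rpl22l1 and Rps9 ILMN_1214918) and 4 lower, where 18.8% of all probes were higher and 18.0% lower. The 4 were both Rpl31 probes (-0.50 and -0.57), Rpl28 (-0.42) and Rpl5 (-0.31). The median difference of the members was then -0.01. Within the arrays of high background, 3 members were higher and 1 lower, beside 13.2% and 14.5% of all probes. Rpl3l, Rps9 ILMN_2643092 and Rpl23 ILMN_1238227 were the 3, and a probe of Rpl38 (ILMN_2594971) was the 1 that fell.

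Between TAN and G-MDSC, 31 probes were called higher in TAN and 9 lower, beside 32.1% and 26.7% of all probes. The median difference was 0.30 over the members and 0.05 over all probes. Of the 31, 16 had all TAN above all G-MDSC, a share of the 69 members close to that of all probes (23.5%). By the probe with the highest mean signal of each gene, the 6 largest of these were Rpl19 (1.55 ± 0.20), Rplp0 (1.50 ± 0.17), Rpl13a (1.37 ± 0.25), Rps3a1 (1.36 ± 0.20), Rps27l (1.25 ± 0.17) and Rpl3 (1.16 ± 0.20, SE). Without G-MDSC 1 the median difference was 0.47. With each array scaled to its median it was 0.20, with 23 members higher and 9 lower beside 23.0% and 29.8% of all probes. The 8 probes that fell against NN fell against G-MDSC too, with log2 differences from -3.66 for Rps7 to -1.18 for Rpl24. The ninth, Rps19 ILMN_2754355, was not above background on any TAN. Of the 9 only the Rps9 probe (-2.56) had all TAN below all G-MDSC. Over all probes, the same held in 3004 of the 4363 called lower, which is 18.4% of the 16322. With a block for the background level, 25 were higher and 1, that Rps9 probe, was lower, beside 18.1% and 15.1% of all probes.

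Among the other paralogs and parents, Rps27l and Rpl36al were measured along with their counterpart, and Rpl7l1 and Rpl39 without it. Rps27l, a paralog of Rps27 that p53 can induce, was 11.92 to 12.61 (median 12.35) in NN, 11.92, 12.26, 12.32 and 12.17 in G-MDSC and 13.64, 13.56, 12.95 and 13.51 in TAN. No TAN overlapped another group, and the TAN versus NN difference was 1.12 ± 0.15 (SE), adjusted p = 8.36e-06. Rps27 itself rose by 0.31 ± 0.13 (SE), adjusted p = 0.0446, with TAN 3 inside the NN range. Rpl36al differed by 0.15 ± 0.24 (SE), adjusted p = 0.604 and its relative Rpl36a rose by 1.43 ± 0.22 (SE), adjusted p = 3.44e-05. Rpl7l1 differed by -0.17 ± 0.12 (SE), adjusted p = 0.236 by ILMN_1249606 and was near background by its other probe. Rpl39, which lines the exit tunnel of the ribosome, rose by 0.89 ± 0.16 (SE), adjusted p = 1.43e-04. Whether a paralog and its parent differed from each other in their change was not tested.

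A further 15 probes passed the test in no comparison. They included Rpl17, which was above background only on TAN 1, Rps15a and Rps19bp1, both near background, 1 Rpl23 probe (ILMN_2946482), and Rps4x, Rps15, Rps16, Rpl35 and Rpl37a. Rps16 and Rpl35 were highest of all arrays on TAN 3 (14.23 and 14.52), and Rps16 was lowest on TAN 1 (12.99). Rpl38, whose loss in mouse embryos alters the translation of Hox messages, rose in TAN by both probes (1.11 and 0.55), and in both the TAN 3 array lay within or below the NN range.

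Genes that make or use the ribosome were compared from lists of names, each against NN. Of 99 probes for mitochondrial ribosomal proteins, which are encoded in the nucleus and build the separate ribosome of the mitochondrion, 54 rose and 20 fell in TAN (median 0.45), and 11 rose and 14 fell in G-MDSC (median -0.03). Beside these and the following counts stand 32.7% of all probes higher and 29.1% lower in TAN, and 18.0% and 18.5% in G-MDSC. Of 45 probes for ribosome biogenesis factors (31 of 39 listed genes), 29 rose and 7 fell in TAN (median 0.70), and 5 rose and 2 fell in G-MDSC (median 0.08). Fbl, the methylase of ribosomal RNA, rose in TAN by 1.77 and Gnl3, the nucleolar protein nucleostemin, by 2.41 on the log2 scale by ILMN_2601639. Polr1a, the large subunit of RNA polymerase I, fell by 1.54 by ILMN_2700107.

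Of 31 probes for translation factors and other TOP messages (18 of 25 listed genes), 13 rose and 11 fell in TAN (median 0.05). In G-MDSC 4 rose and 1 fell (median 0.09). The medians depend on counting every probe: with 1 probe per gene, that of highest mean signal, the TAN versus NN median was 0.52 for 18 genes of this list, with 10 higher and 6 lower, 0.68 for 71 mitochondrial ribosomal protein genes, 0.998 for 31 biogenesis genes and 0.52 for the 60 ribosomal protein genes. The highest mean signal counted the TAN arrays, so probes low in TAN were less often the ones kept. Eef1g, a subunit of the elongation factor complex, rose in TAN by 0.89. Tpt1, which has a TOP tract, rose by 0.84 on the log2 scale. Vim, the filament protein vimentin, fell by 4.37, from 12.44 to 13.15 in NN to 6.89, 6.99, 11.97 and 7.83 on TAN 1 to 4.

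The pattern of the 8 ribosomal probes recurred in some lowered probes of these lists and not in others. From the NN mean, Mrpl4 differed by -2.37 in the mean of TAN 1, 2 and 4 and by 0.80 on TAN 3. Mrpl53 differed by -4.46 and -1.02, and Mrpl43 (ILMN_2633805) by -3.93 and -0.20, so there TAN 3 stayed below the NN mean. Eef1b2, an exchange factor for Eef1a1, had 1 probe (ILMN_1229042) that measured 10.39 to 11.02 in NN and 6.51, 7.23, 11.63 and 7.09 on TAN 1 to 4, while ILMN_2708644 of this gene was 11.59 to 12.16 and 12.84, 12.95, 12.99 and 13.26. Naca, which escorts new peptides, had a probe (ILMN_2651643) at 8.95 to 9.35 in NN and 6.61, 6.81, 10.08 and 6.64 in TAN, while ILMN_2955104 was 11.89 to 12.73 and 13.12, 13.16, 13.06 and 13.39. In both genes the first probe was low in TAN 1, 2 and 4 and high in TAN 3, and the second was above NN in all 4 TAN.

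**Figure D4:**
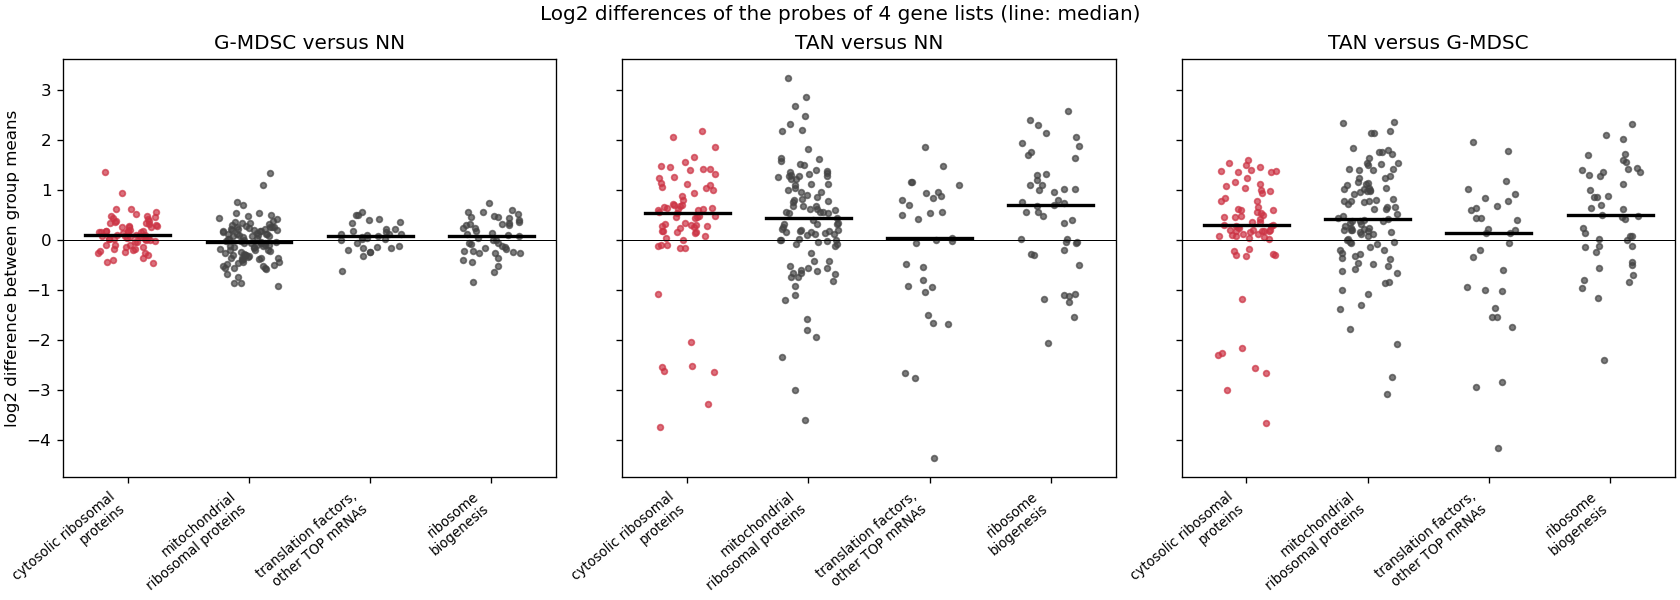
Log2 difference between group means for each probe (points) of the cytosolic ribosomal proteins and 3 other lists, in the 3 comparisons, with the median as a line. In TAN versus NN the medians over all probes are 0.55, 0.45, 0.05 and 0.70 from left to right (0.52, 0.68, 0.52 and 0.998 with 1 probe per gene), and in G-MDSC versus NN they lie between -0.03 and 0.11.

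The populations also differed in markers of other cells. The mean of 5 erythroid markers lay between 12.74 and 13.05 in NN, between 7.71 and 8.61 in G-MDSC and between 7.24 and 7.76 in TAN, and that of the 6 markers of proliferating precursors ran from 9.64 to 10.18, 7.31 to 7.78 and 7.72 to 8.48. That of 5 platelet markers ran from 10.96 to 12.26, 6.76 to 6.92 and 7.84 to 8.17, and that of 3 eosinophil markers from 11.36 to 12.12, 6.66 to 8.37 and 6.37 to 6.84. Of the 5 platelet markers 4 were called lower in TAN than in NN. The remaining one, Pf4, was 12.24 to 13.36 in NN and 12.38 to 12.94 in TAN. The 8 macrophage markers had 9.19 to 10.05 in NN and 11.32 to 13.37 in TAN, and the 8 mesothelial, tumor or fibroblast markers 6.37 to 6.69 and 7.88 to 8.28. In each of these lists 6 were called higher in TAN than in NN. C1qa was 8.68 to 9.84 in NN and 7.88, 8.07, 13.05 and 9.03 on TAN 1 to 4. C1qc also lay below every NN on TAN 1 and TAN 2. Sparc was 7.40 to 8.80 in NN and 6.07 to 7.68 in TAN, and Upk3b was not above background on any TAN. All 11 neutrophil markers were above background on at least 1 array of each group. Their mean spanned 14.09 to 14.31 in NN, 13.07 to 13.19 in the spleen group and 10.82 to 11.7 in TAN. Of these markers 9 were called lower in TAN than in NN, but they did not move alike. S100a8 was 15.76 to 15.91 in NN and 15.54 to 15.87 in TAN, while Ngp was 15.73 to 15.89 and 6.40 to 11.36. Csf3r and Cxcr2 lay above every NN on all G-MDSC. Their part in the ribosomal protein results was not tested.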

How the data were processed

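RNA from 15 pooled samples was measured on single-color Illumina bead arrays. The deposited per-array values are probe intensities that had not been normalized, and the authors also deposited a table of quantile normalized intensities, made with BeadStudio per the labels. All 25697 probes of the per-array tables were background corrected with normexp (limma 3.58.1 under R 4.3.3, offset 50), log2 transformed and quantile normalized. The 16322 probes of the authors' table were fitted with limma in 1 model over the 3 groups, and p-values were adjusted by Benjamini-Hochberg over all of them, with calls at an adjusted p under 0.05. The authors' normalized table served as an alternative. The per-array tables used here held no detection p-values, and 0 columns of per-sample values were left out as unmapped. The background limit was the 95th percentile of the probes outside the authors' table. Gene names came from the platform annotation, where 998 probes had no symbol. The script was tested on simulated data.

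The named genes were, in each comparison, up to 6 rises and 6 falls with the largest change among genes called without overlap between groups, each gene read from the probe of highest mean, and a list of genes of known role and paralogs. The members, lists and tests were chosen with earlier results of these data known. Alternatives changed the background correction, the normalization, the probe filter, the test, the blocks, the array weights and the arrays used.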

Additional observations from a re-analysis of the deposited data

Results flagged for a closer look

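In groups of 4 to 10 samples, the gap between the highest or lowest sample and its nearest neighbor was divided by the range of the group. The groups were those of the named probes and of the member median. This ratio passed Dixon's 95% critical value in 20 of 135 groups tested. Some of the named probes were chosen after their values were seen. The share can therefore not be set against the 1 in 20 that chance passes.

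TAN 3 stood apart on the high side in 5 of the probes that fell in the other TAN. The ratio was 0.985 for Rps2 (ILMN_2946616), 0.979 for Rps3 (ILMN_2637639), 0.973 for Rpl7a (ILMN_2819841), 0.964 for Rps6 (ILMN_2893077) and 0.862 for Rps7 (ILMN_2916116). TAN 3 stood apart on the low side by 0.896 in Rps26, 0.884 and 0.858 in the probes ILMN_3135931 and ILMN_2594971 of Rpl38, and 0.879 in Rps19 (ILMN_2862280). The same held by 0.873 and 0.848 in the probes ILMN_2742807 and ILMN_2946482 of Rpl23, by 0.865 in Rpl12 and by 0.841 in Rpl29.

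G-MDSC 1 stood apart on the high side by 0.976 in Rpl38 (ILMN_3135931), 0.971 in Rps10, 0.922 in Rps3a1, 0.856 in Rpl29 and 0.841 in Rps7. The median signal of all ribosomal protein probes was also high on this array, at 13.45 against 12.54 to 12.65 on the other G-MDSC, a ratio of 0.888. TAN 4 was high in Rpl22 (0.846), at 9.54 against 8.62 to 8.76 on the other TAN.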

How the results depend on the processing

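The G-MDSC versus NN counts depended most on the processing. The 8 probes called higher became 24 with each array scaled to its median, 2 with a block for background level, 3 within 1 such level and 5 without both TAN 3 and G-MDSC 1, and ranged from 3 to 11 when 1 array was left out. The 1 called lower became 0 with median scaling, 0 with the background block, 9 with array weights, 10 without both arrays and 4 with TAN 3 as the only TAN (0 to 6 leaving out 1 array). The median difference of 0.11 became 0.42 with median scaling (-0.01 to 0.18 leaving out 1 array, the lowest without G-MDSC 1). In TAN versus NN, the 8 falls became 0 with TAN 3 as the only TAN (7 to 9 leaving out 1 array), the 42 rises were 37 to 46 leaving out 1 array, 47 with median scaling or array weights and 29 with TAN 3 as the only TAN, and the median became 0.74 with median scaling (0.51 to 0.59 leaving out 1 array). In TAN versus G-MDSC, the 9 falls became 1 with that block and 1 if TAN 3 was the sole TAN (5 to 10 leaving out 1 array, with 5 without TAN 1, TAN 2 or TAN 4). The 31 rises there were 26 to 37 leaving out 1 array, 23 with median scaling, 24 with TAN 3 alone, 25 with the background block, 41 without both arrays and 44 with array weights, and the median became 0.49 without both arrays and 0.20 with median scaling (0.22 to 0.47 leaving out 1 array). The cause was not tested.

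Groups shared replicate numbers, and the deviations of same-numbered samples correlated between -0.31 and 0.27, with 4 of 12 pairs over 0.1, so the numbers were not taken to pair the samples. With the replicate block, 0 members fell in G-MDSC versus NN, 9 rose there, and 39 rose and 7 fell in TAN versus NN. The calls over all probes went from 5954 to 5700, 10075 to 8836 and 9598 to 9297 in the 3 comparisons.

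With TAN 3 as the only TAN, where this array is assumed to vary like the other groups, TAN versus NN turned to 0.72 in Rpl24, 0.33 in Rpl27, 1.21 in Rpl7a, 1.53 in Rps2, 0.52 in Rps3 (ILMN_2637639), 0.64 in Rps6, 0.61 in Rps7, 0.31 in Rps9 (ILMN_2643092), -0.36 in Rpl38 (ILMN_2594971), -0.079 in Rpl3l and -0.11 in Rps27. TAN versus G-MDSC turned to 0.61 in Rpl24, 0.59 in Rpl27, 1.67 in Rpl7a, 1.49 in Rps2, 0.78 in Rps3 (ILMN_2637639), 0.93 in Rps6 and 0.70 in Rps7. Rpl31 (ILMN_3152328) turned to 0.10 in G-MDSC versus NN with median scaling, and Rps3 (ILMN_2594103) to -0.36 in TAN versus NN with array weights. Of 3388 values of named genes under the alternatives, 3138 stayed called in the same direction or stayed uncalled. A further 145 lost the call, 85 gained one and 20 changed direction. A change of direction was counted only where the main fit or the alternative called the value.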
